A study of Homo sapiens with 9 samples.

Results

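CCN1, CCN2, ANKRD1, AXL, AMOTL2, THBS1, YAP1, TEAD1 and LATS2 were followed as a set of 9 genes: the CCN matricellular genes and other target genes of the transcriptional coactivator YAP, together with the coactivator, one of its DNA-binding partners and one of its inhibitory kinases. They were chosen by name out of 11963 genes with a named probe set, and older symbols such as CYR61 for CCN1 and CTGF for CCN2 were accepted. Of the 9 genes, 8 had a probe set and LATS2 had none. Where a gene had several probe sets, the one with the highest mean over all arrays stood for it and the others served as a check. CCN1, CCN2, AXL, AMOTL2 and THBS1 were tested, since their log2 values passed a filter of 4, to be reached on 3 or more arrays, and each reached it on all 9. ANKRD1, YAP1 and TEAD1 did not reach it on 3 arrays and are given by their values with no test.

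The cells were HK-2, an immortalised epithelial line from human kidney proximal tubule, profiled on single-colour Affymetrix arrays in 3 groups of 3 arrays. One group was untreated at 0 h (named vehicle in the series' design text), one had 24 h of transforming growth factor β1 (TGFβ1) and one had 48 h. There were 3 runs from consecutive passages, each on its own day, and each array holds the pooled plates of 1 time point in 1 run. The sources used here give no dose. Since cells kept untreated for 24 h or 48 h were not analysed here, TGFβ1 and time in culture cannot be told apart. In bulk RNA, a change in the number of expressing cells cannot be told apart from a change in RNA per cell.

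Array medians lay between 2.20 and 2.23, and 28.2% to 29.3% of probe sets per array reached a log2 value of 4. As a check of the treatment, the TGFβ1 response genes PMEPA1 (2.69 at 24 h), TGFBI (2.59), SMAD7 (1.62) and LTBP2 (1.13) all rose at both times, though SMAD7 at both times and LTBP2 at 48 h lost the call with some arrays or runs left out. TGFBI and LTBP2 reached the filter on every array, while PMEPA1 and SMAD7 passed it through the treated arrays, so that their rise helped to select them. Of 13 kidney tubule markers on the array 6 passed the filter, among them KRT18, KRT19 and PAX8, while LRP2, CUBN, AQP1, CDH16 and CDH1 had group means from 1.10 to 1.67. Of these 6, EPCAM fell by 1.27 at 24 h (adjusted p = 0.00116) and 1.17 at 48 h, and PAX8 by 0.60 and 0.81. With the replicate block, KRT8 also rose at 24 h (0.65, adjusted p = 0.0640 without and 0.0123 with the block) and CDH6 at 48 h (1.33, adjusted p = 0.103 without and 0.00659 with the block). The log2 of the summed linear level of the tubule markers ranged from 11.03 to 11.23 in untreated cells, 10.91 to 11.19 at 24 h and 10.85 to 11.04 at 48 h. Of 7 fibroblast markers LUM passed the filter, and their summed level was 6.72 to 7.07, 6.40 to 6.90 and 7.02 to 7.21. That sum mostly follows LUM, the brightest (means 6.48, 6.11 and 6.82), and says little of the others. Under the filter, COL1A1 had means of 1.73, 3.08 and 2.84, and THY1 of 3.03, 2.85 and 2.66. No endothelial (of 5) or leukocyte marker (of 4 on the array) passed it, and the highest mean among them was 2.33. The part of these shifts in the results below was not tested.

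In the Hippo pathway a chain of kinases ending in LATS1 and LATS2 phosphorylates YAP and its relative TAZ (gene WWTR1) and keeps them out of the nucleus. Unphosphorylated YAP and TAZ bind TEAD transcription factors and switch on genes such as CCN1, CCN2, ANKRD1 and AXL, and also AMOTL2 and LATS2, whose products restrain YAP in turn. YAP is regulated mostly through its phosphorylation and location, which an expression array does not measure. CCN2 and THBS1 are also well-known targets of TGFβ1, and in kidney tubule cells CCN2 is studied as a mediator of fibrosis.

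GGAATG is the core of the sequence that TEAD factors bind. RefSeq promoter windows of GRCh38.p14, which run from 250 bases before to 50 bases after a gene's start, were found for 7 of the 9 genes. CCN1 and TEAD1 were not matched. All 7 held GGAATG or its reverse complement CATTCC in at least 1 window, 7 of their 9 windows in all, while 14.0% of the 35116 windows in the table did. CCN2 had 3 matches and ANKRD1 had 2, where 0.128% of all windows had 3 or more and 1.37% had 2 or more. A CAGACA motif, one of the sequences bound by SMAD proteins, or its reverse complement TGTCTG, was found in windows of ANKRD1, AXL and AMOTL2. It was in 3 of the 9 member windows and in 16.9% of all windows. Shorter forms were not counted, and the stretches printed below for CCN2 and THBS1 each hold CAGAC. The 250 bases before the start are shown for CCN2 (chr6:131951373-131951622, minus strand), THBS1 (chr15:39580829-39581078, plus strand) and ANKRD1 (chr10:90921088-90921337, minus strand), the first 2 for having the largest log2 fold changes among the 5 members tested and ANKRD1 for having more than 1 match. They are written 5′ to 3′ along the gene with GGAATG in capitals. A match is a run of letters and does not show that a factor is bound there.
CCN2: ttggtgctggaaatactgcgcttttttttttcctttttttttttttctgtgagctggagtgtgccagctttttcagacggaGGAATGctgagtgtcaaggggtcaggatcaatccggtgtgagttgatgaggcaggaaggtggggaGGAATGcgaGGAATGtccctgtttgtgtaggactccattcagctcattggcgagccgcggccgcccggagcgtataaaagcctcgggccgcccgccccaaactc
THBS1: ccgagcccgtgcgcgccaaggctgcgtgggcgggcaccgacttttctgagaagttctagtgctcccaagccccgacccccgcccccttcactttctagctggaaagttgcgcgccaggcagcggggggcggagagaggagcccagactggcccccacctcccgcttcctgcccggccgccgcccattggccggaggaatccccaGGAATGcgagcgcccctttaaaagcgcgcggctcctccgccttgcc
ANKRD1: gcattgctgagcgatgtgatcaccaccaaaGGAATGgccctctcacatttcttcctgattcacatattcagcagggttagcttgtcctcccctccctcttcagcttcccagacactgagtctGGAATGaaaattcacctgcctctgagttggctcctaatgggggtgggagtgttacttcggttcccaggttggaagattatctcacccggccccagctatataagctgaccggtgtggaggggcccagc

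Across the set, THBS1 rose at both times. CCN2 was higher on every 24 h array than on any untreated one, which held for 8.68% of all genes tested. It did not pass the threshold at either time without the replicate block, and with the block it passed at 24 h only. CCN1, AXL and AMOTL2 did not pass in either fit, with log2 fold changes from −0.28 to 0.17. Of the 5 genes tested without the block, 1 was past the threshold at 24 h against untreated, where 4.81% of all 4368 genes tested were, and 1 at 48 h, where 4.44% were. The called gene was THBS1 both times. With the block 2 were past it at 24 h (THBS1 and CCN2), beside 11.5%, and 1 at 48 h (THBS1), beside 10.0%. The median log2 fold change of the 5 genes was 0.17 at 24 h and −0.03 at 48 h, beside 0.02 and 0.02 over all genes tested. At 24 h CCN1, CCN2, AXL and THBS1 were higher in all 3 runs, 4 of the 5, as were 24.9% of all genes tested. On their second probe sets, CCN1 (−0.095 in run 1) and AXL (−0.013 in run 1, under the filter) were not higher in all 3. At 48 h CCN2 and THBS1 were higher in all 3 runs (23.2% of all genes) and AXL and AMOTL2 lower (18.2%). Here and below the log2 fold change is a difference of group means of log2 values. The adjusted p comes from limma with Benjamini-Hochberg adjustment over all genes tested and a threshold of 0.05.

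**Figure D1:**
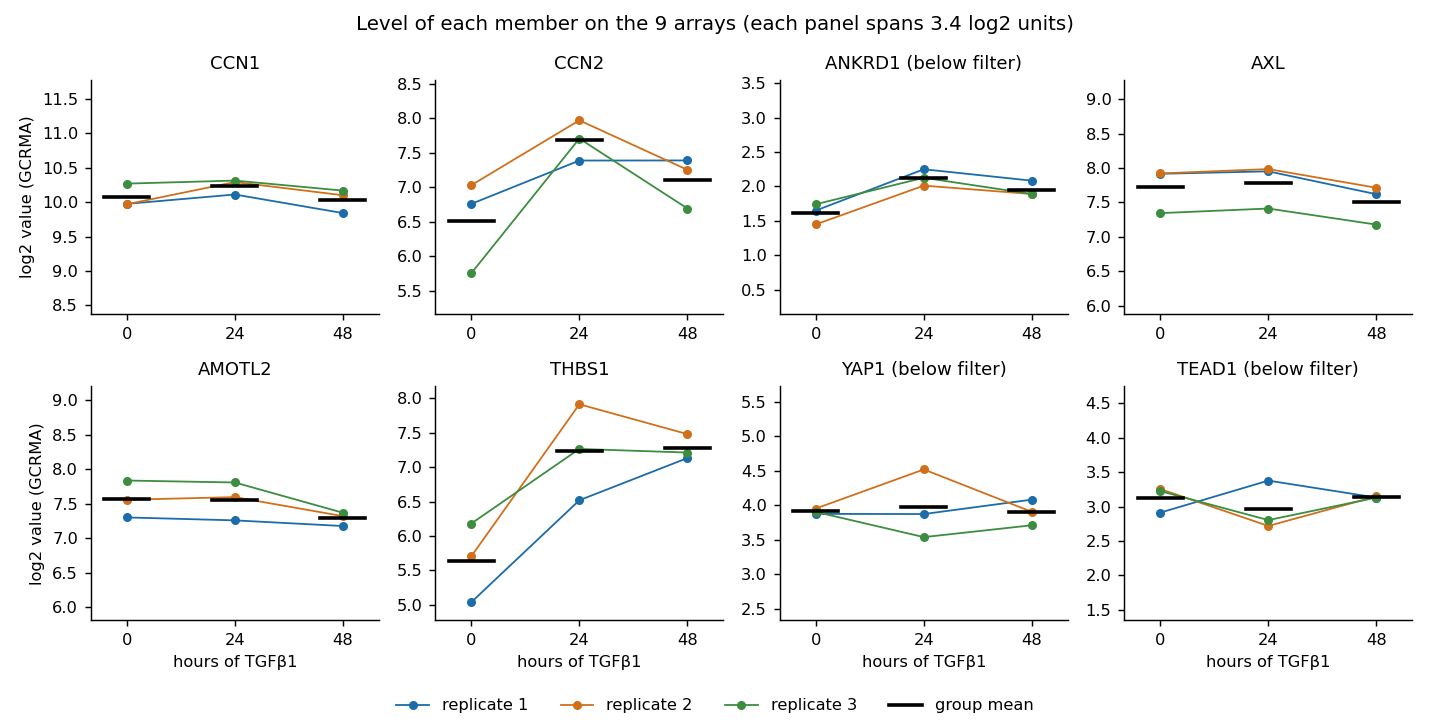
Log2 value of the 8 genes with a probe set (vertical axis) at 0, 24 and 48 h of TGFβ1 (horizontal axis). Points joined by a line are the arrays of 1 replicate number and black bars are group means. THBS1 lay between 5.04 and 6.18 in untreated cells and between 6.52 and 7.91 at 24 h, while the AXL lines ran nearly parallel with replicate 3 lowest throughout.

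THBS1 encodes thrombospondin-1, a secreted matrix glycoprotein that can release active TGFβ1 from its latent complex. Its log2 values were 5.04, 5.70 and 6.18 on the untreated arrays of replicates 1, 2 and 3, 6.52, 7.91 and 7.26 at 24 h, and 7.13, 7.48 and 7.21 at 48 h. Every treated array lay above every untreated one, which held for 8.68% of all genes tested at 24 h and 9.75% at 48 h. The rise was 3.01-fold at 24 h (log2 fold change 1.59 ± 0.36 SE, 95% interval 0.78 to 2.41, adjusted p = 0.0373) and 3.10-fold at 48 h (1.63, 0.82 to 2.45, adjusted p = 0.0344). Between 24 h and 48 h the difference was 0.04 (−0.77 to 0.86), with 1 run higher and 2 lower. The 24 h arrays spread more widely (SD 0.70) than the 48 h arrays (SD 0.18). Within runs the rise at 24 h was 1.48, 2.21 and 1.08 on the log2 scale, and at 48 h 2.09, 1.78 and 1.03.

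Without the replicate block, the THBS1 call depended on which arrays entered the fit, while the direction did not. Every fit here and below with arrays or runs left out had no replicate block. Over all genes, such fits called 34 to 213 at 24 h and 33 to 206 at 48 h. With 1 array left out at a time, THBS1 passed at 24 h without untreated replicate 3 or without 24 h replicate 1. Each of the other 7 omissions ended the call (adjusted p = 0.0577 to 0.135). At 48 h it passed without untreated replicate 3, 24 h replicate 1 or 24 h replicate 2, and not with any of the other 6 left out (0.0576 to 0.131). With the replicate number as a block, which compares arrays within a run, the adjusted p was 0.00424 at 24 h and 0.0038 at 48 h.

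The 5 THBS1 probe sets did not have the same size of change. The second brightest lay between 2.93 and 3.27 in untreated cells and rose to 4.20, 4.30 and 3.72 at 24 h and 4.17, 4.27 and 3.85 at 48 h. Its rise was 1.01 ± 0.19 at 24 h and 1.03 at 48 h (adjusted p = 0.0182 and 0.0158 when each probe set was tested on its own), though it entered the test only through 4 treated arrays. The third had means of 2.35, 2.98 and 3.14 at 0, 24 and 48 h, and each treated array again lay above each untreated one. The dimmest went from a mean of 1.24 to 1.45 and 1.42, also without overlap. The remaining one overlapped between groups, with means of 1.69, 1.76 and 1.77. These 3 did not reach a log2 value of 4 on any array and were not tested. The shares of genes without overlap given above cover only genes past the filter, so none was at hand for these probe sets.

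**Figure D2:**
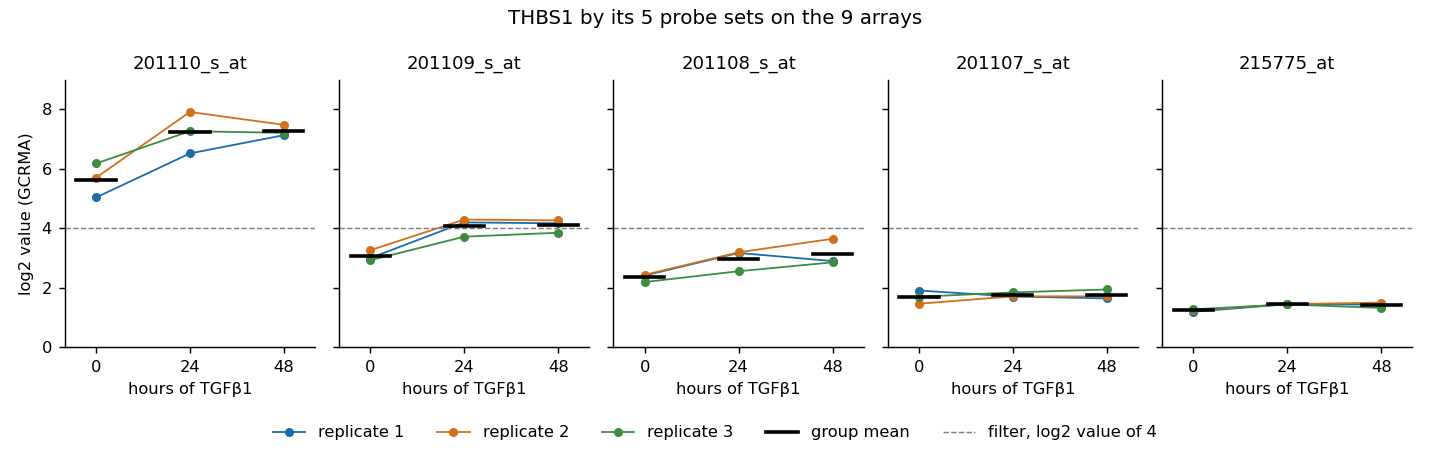
Log2 value (vertical axis) of the 5 THBS1 probe sets against hours of TGFβ1, with points joined by replicate number, black bars at group means and a dashed line at the log2 value of 4 used as a filter. The 3 brightest sets and the dimmest were higher in all treated arrays, and the fourth was not.

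CCN2 encodes connective tissue growth factor, a matricellular protein secreted into the matrix. Its log2 values were 6.76, 7.03 and 5.75 in untreated cells, 7.39, 7.97 and 7.71 at 24 h and 7.39, 7.25 and 6.69 at 48 h. All 24 h arrays lay above all untreated arrays, as for 8.68% of all genes tested. At 48 h the groups overlapped, since replicate 3 at 48 h lay below replicates 1 and 2 of the untreated cells. The untreated array of replicate 3 was the lowest of the 9. The difference at 24 h was 2.26-fold and did not pass the threshold (1.18 ± 0.33, 95% interval 0.44 to 1.91, adjusted p = 0.0885). With the replicate number as a block it passed (0.62 to 1.73, adjusted p = 0.0166), as did 11.5% of all genes tested. Within runs CCN2 was higher at 24 h by 0.63, 0.94 and 1.96, so that replicate 3 held the largest of the 3 differences.

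At 48 h CCN2 was 0.60 above untreated cells (−0.14 to 1.33, adjusted p = 0.513; 0.047 to 1.15 and 0.182 with the replicate block), with runs at 0.63, 0.22 and 0.94. From 24 h to 48 h it differed by −0.58 (−1.31 to 0.16, adjusted p = 0.781), by 0.0016 in replicate 1, −0.72 in replicate 2 and −1.02 in replicate 3. Leaving out untreated replicate 2 brought the 24 h difference past the threshold (1.43, adjusted p = 0.0462), and leaving out any other single array did not. Leaving out untreated replicate 3 lowered the 48 h difference to 0.22. CCN2 was read by a single probe set, so that no second reading was at hand.

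CCN1 encodes CYR61, the close relative of CCN2 that signals through integrins. Its log2 values were 9.97, 9.97 and 10.27 in untreated cells, 10.11, 10.29 and 10.31 at 24 h and 9.84, 10.10 and 10.17 at 48 h, and the groups overlapped. The difference at 24 h was 0.17 ± 0.15 (−0.16 to 0.50, adjusted p = 0.631) and at 48 h −0.03 (−0.37 to 0.30, adjusted p = 0.984). The second CCN1 probe set gave 0.07 (−0.24 to 0.38) and −0.17 (−0.49 to 0.14), and at 48 h its arrays all lay below the untreated ones, as did those of 8.31% of all genes tested. The upper limits at both times lay below a 2-fold rise on both probe sets, a log2 fold change of 1.

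Of the other CCN genes, CCN3 (NOV), a secreted member of the family, was tested and rose. It lay between 6.20 and 6.65 in untreated cells, between 7.12 and 7.31 at 24 h and between 7.34 and 7.67 at 48 h. All treated arrays thus lay above the untreated ones, which held for 8.68% of all genes tested at 24 h and 9.75% at 48 h. The rise was 0.76 ± 0.16 at 24 h (adjusted p = 0.0264) and 1.04 at 48 h (2.05-fold, adjusted p = 0.00547). At 24 h the call was lost without untreated replicate 3 or without any one of the 24 h arrays (adjusted p = 0.0615 to 0.0783). At 48 h it held with each single array left out, but not without the whole of replicate 1 (adjusted p = 0.118) or replicate 2 (0.0638). At 24 h it was lost without any one of the 3 whole runs (0.144 to 0.173). CCN4, CCN5 and CCN6 had group means from 1.14 to 1.97 and were not tested. Of 3 CCN genes tested, 1 rose at 24 h and 1 at 48 h, beside 2.63% and 2.27% of all genes tested. With the replicate block 2 rose at 24 h, beside 5.95%.

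ANKRD1 encodes a nuclear and sarcomeric ankyrin-repeat protein and is a standard readout of YAP. Its log2 values were 1.65, 1.45 and 1.74 in untreated cells, 2.25, 2.01 and 2.13 at 24 h and 2.08, 1.89 and 1.89 at 48 h. All treated arrays lay above all untreated ones, by 0.52 on average at 24 h and 0.34 at 48 h. From 24 h to 48 h it was lower in each run, by 0.17, 0.12 and 0.24. These values lay near or below the array medians, and no test was made. The shares of genes without overlap given for THBS1 cover only genes past the filter, so none was at hand for ANKRD1. The related gene ANKRD2 had means of 2.11, 2.02 and 2.37.

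AXL, a receptor tyrosine kinase for the ligand GAS6, had log2 values of 7.92, 7.92 and 7.34 in untreated cells, 7.95, 7.98 and 7.41 at 24 h and 7.62, 7.71 and 7.18 at 48 h. Replicate 3 was the lowest at each time, and the groups overlapped. Within runs the differences were close to each other. At 24 h they were 0.04, 0.06 and 0.07, at 48 h against untreated −0.30, −0.21 and −0.17, and at 48 h against 24 h −0.33, −0.27 and −0.23. AXL was not past the threshold in any comparison (adjusted p = 0.947 at 24 h, 0.797 at 48 h and 0.793 between them), and it did not pass with the replicate block either (0.772, 0.224 and 0.253). The 95% interval with the block was −0.17 to 0.28 at 24 h and −0.45 to 0.0035 at 48 h.

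The second AXL probe set, under the filter, had means of 3.68, 3.77 and 3.59. PROS1, the gene of protein S and a ligand of the related receptors TYRO3 and MERTK, was the other tested gene of this family. It differed by −0.99 ± 0.37 at 24 h (adjusted p = 0.23 without and 0.023 with the replicate block) and by −0.80 at 48 h (adjusted p = 0.399). GAS6, TYRO3 and MERTK had group means from 2.01 to 2.95 and were not tested.

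AMOTL2 encodes an angiomotin-like scaffold that holds YAP at cell junctions. Its log2 values were 7.30, 7.56 and 7.84 in untreated cells, 7.26, 7.60 and 7.81 at 24 h and 7.18, 7.32 and 7.37 at 48 h, and the groups overlapped. It differed by −0.01 ± 0.18 at 24 h (−0.43 to 0.40, adjusted p = 0.986) and by −0.28 at 48 h (−0.69 to 0.14, adjusted p = 0.614). Within runs the differences at 48 h were −0.12, −0.24 and −0.47, and AMOTL2 did not pass with the replicate block either (−0.54 to −0.016, adjusted p = 0.192).

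**Figure D3:**
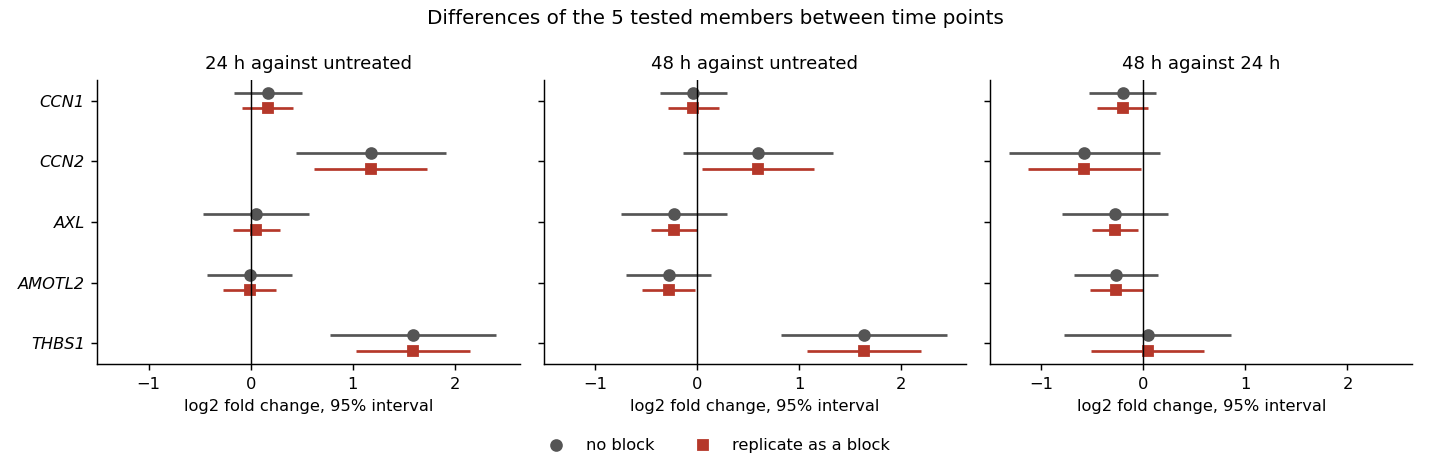
Log2 fold change of the 5 tested genes (horizontal axis) with its 95% interval in the 3 comparisons, from the fit without a block (grey circles) and with the replicate number as a block (red squares). THBS1 lay to the right of 0 at both times against untreated cells in both fits, as did CCN2 at 24 h and, with the block, at 48 h, while with the block AMOTL2 at 48 h, and CCN2, AXL and AMOTL2 between 48 h and 24 h, lay to the left of 0.

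YAP1, the coactivator gene, lay between 3.87 and 3.95 in untreated cells, at 3.87, 4.52 and 3.54 at 24 h and at 4.08, 3.90 and 3.71 at 48 h. It reached 4 on 2 arrays and was not tested. Its mean differences were 0.07 at 24 h and −0.01 at 48 h, with runs in both directions. TEAD1, a DNA-binding partner of YAP, had values of 2.91, 3.25 and 3.22 in untreated cells, 3.38, 2.72 and 2.80 at 24 h and 3.13, 3.15 and 3.13 at 48 h. It too differed in both directions between runs.

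From 24 h to 48 h, CCN1, AXL and AMOTL2 of the 5 genes tested were lower in all 3 runs, as were 22.3% of all genes tested. On their second probe sets CCN1 and AXL were lower in 2 of 3 runs, with replicate 1 higher by 0.0057 and 0.00027. CCN2 and THBS1 were lower in 2 of 3. No gene of the 5 was past the threshold in limma in this comparison, with or without the replicate block, and neither was any of the 4368 genes tested (0% in either fit). At an unadjusted p under 0.05 there were 219 genes without the block, none of them in the set. With the block there were 709, or 16.2%, and CCN2, AXL and AMOTL2 were among them.

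The wider YAP programme was read from a signature of 22 YAP and TAZ target genes, which contains 6 of the 9 genes, and from 37 Hippo pathway genes. THBS1, the gene of the set called without the block, is not in the signature. Of the signature, 19 genes were on the array and 12 were tested. At 24 h 1 of the 12 rose and 0 fell, beside 2.63% and 2.17% of all genes tested, and at 48 h 0 rose and 0 fell, beside 2.27% and 2.17%. Their median log2 fold change was 0.02 at 24 h and −0.13 at 48 h, and 6 and 4 of the 12 values were above 0. With the replicate block 2 rose and 2 fell at 24 h (5.95% and 5.52% of all genes tested) and 1 rose at 48 h (5.22%, with 10.0% called in either direction).

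F3, the gene of tissue factor, which starts blood coagulation, was the signature gene that rose. It was at 4.56, 4.67 and 5.28 in untreated cells, 6.41, 6.04 and 6.67 at 24 h and 5.92, 5.62 and 6.84 at 48 h. All treated arrays lay above all untreated ones, as for 8.68% of all genes tested at 24 h and 9.75% at 48 h. The rise at 24 h was 2.90-fold (1.54 ± 0.32, adjusted p = 0.027), and at 48 h F3 missed the threshold without the replicate block and passed with it (1.29, adjusted p = 0.0558 and 0.00172). The 24 h call was lost without untreated replicate 1 or 2, 24 h replicate 1 or 3, or 48 h replicate 1 (adjusted p = 0.0501 to 0.112). With a whole run left out it held in 1 of 3 fits (adjusted p = 0.0399 to 0.305). The 48 h value passed without untreated replicate 3 or 48 h replicate 2, with the stricter filter, with median centring and with a variance trend (adjusted p = 0.0375 to 0.0477).

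MYOF, a membrane repair gene, and IGFBP3, a binding protein of insulin-like growth factors, were the signature genes that fell with the replicate block at 24 h. MYOF differed by −0.86 ± 0.26 (adjusted p = 0.11; 0.0212 with the block) and IGFBP3 by −0.84 ± 0.28 (adjusted p = 0.165; 0.0157 with the block). NT5E, FJX1, ASAP1, CRIM1 and GADD45A lay between −0.32 and 0.29 at 24 h and did not pass in either fit.

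Of the Hippo genes, 30 were on the array and 10 were tested, and 1 rose and 0 fell at either time, beside 2.63% and 2.17% of all genes tested at 24 h and 2.27% and 2.17% at 48 h. With the replicate block 2 rose at 48 h, beside 5.22%. The median was 0.13 at 24 h and 0.13 at 48 h. The gene that rose was DLG5, a scaffold of cell junctions and polarity, which was at 5.09, 5.32 and 5.85 in untreated cells, 6.10, 6.36 and 6.35 at 24 h and 6.14, 6.36 and 6.44 at 48 h. Its rise was 0.85 ± 0.20 at 24 h (adjusted p = 0.0412) and 0.89 at 48 h (adjusted p = 0.0343). With 1 array left out, the 24 h call held only without untreated replicate 3 (adjusted p = 0.0545 to 0.146 in the other 8). The 48 h call held without untreated replicate 3, 24 h replicate 1 or 24 h replicate 2 (0.0551 to 0.143 in the other 6). Without any one of the 3 whole runs DLG5 lost the call at 24 h (0.0706 to 0.287) and at 48 h (0.0651 to 0.275).

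WWTR1, the gene of TAZ, was at 8.19, 8.49 and 8.52 in untreated cells, 8.65, 8.65 and 8.76 at 24 h and 8.68, 9.09 and 8.99 at 48 h. It differed by 0.29 ± 0.15 at 24 h (adjusted p = 0.405) and by 0.52 at 48 h (adjusted p = 0.106 without and 0.0251 with the replicate block). TEAD4, another partner of YAP and TAZ, had means of 4.09, 4.19 and 3.94 and did not pass. NF2 (merlin, an activator of LATS kinases), MOB1A (a cofactor of LATS kinases), MAP4K4, CSNK1D, VGLL4 and WWC1 also did not pass in either fit. LATS1, STK4, SAV1 and AMOT had group means under the filter, from 1.30 to 3.15.

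**Figure D4:**
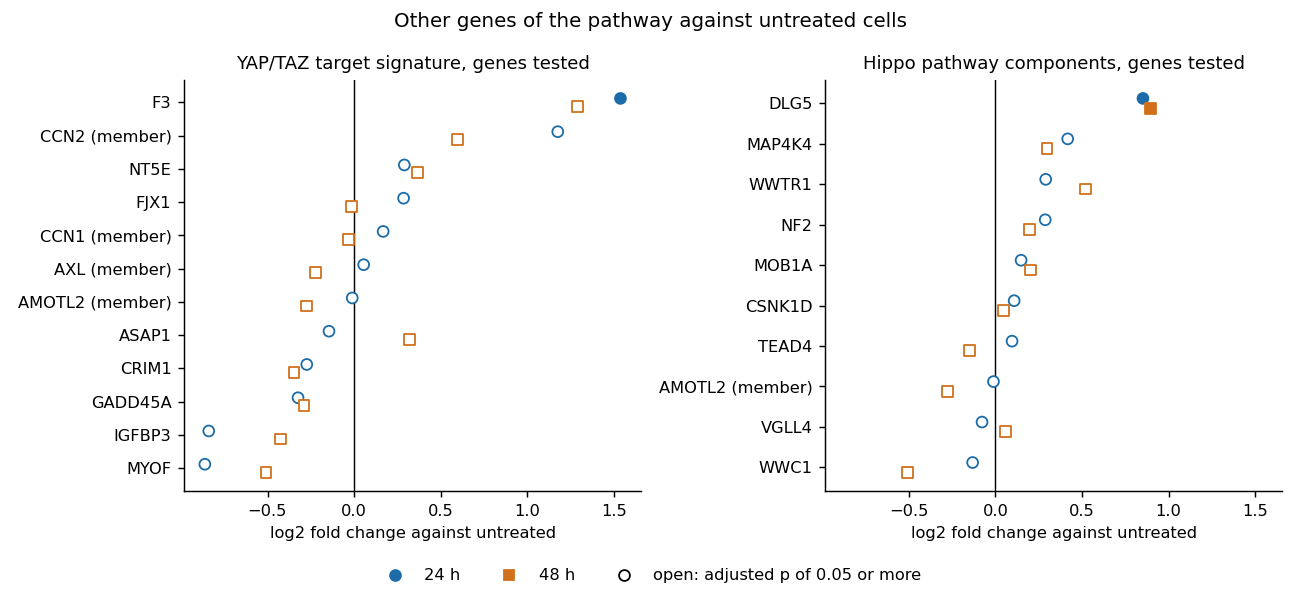
Log2 fold change against untreated cells (horizontal axis) of the tested genes of the YAP and TAZ target signature (left) and of the Hippo pathway (right), at 24 h (circles) and 48 h (squares). Filled symbols passed the threshold in the fit without a block, which F3 did at 24 h and DLG5 at both times. Genes marked as members belong to the set of 9.

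Among other thrombospondins, THBS2 was tested and had means of 4.05, 4.29 and 4.23 (0.24 at 24 h, adjusted p = 0.749). THBS3, THBS4 and COMP had group means from 1.38 to 2.43 and were not tested.

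By Pearson correlation over the 9 arrays, the tested genes most like CCN2 were ITGAE (0.956), FOXM1 (0.934) and SRM (0.933). Those most like THBS1, the gene of the set with the largest F statistic over the 3 groups, were IGF1R (0.955), DLG5 (0.948) and PDLIM7 (0.945). These are descriptions over 9 arrays that share runs, picked as the highest among 4368 genes. CCN2 and THBS1 themselves correlated at 0.56, and at −0.07 once each group's mean was removed. CCN1 and AMOTL2 correlated at 0.75 (0.81 after removal), and CCN1 and AXL at −0.33 (−0.70 after removal). With the value after removal in brackets, CCN1 correlated with CCN2 at 0.02 (−0.62) and with THBS1 at 0.43 (0.65). CCN2 correlated with AXL at 0.46 (0.71) and with AMOTL2 at −0.20 (−0.35). AMOTL2 correlated with THBS1 at 0.05 (0.78) and with AXL at −0.32 (−0.75). AXL and THBS1 correlated at −0.24 (−0.26).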

How the data were processed

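RNA of HK-2 cells was profiled on 9 single-colour arrays, 3 per time point. The authors deposited 1 log2 value per probe set. The submitters' processing notes name GCRMA, with no version. GCRMA corrects background from probe sequence, normalizes between arrays and summarises probes. The log2 base is inferred from the highest value, 12.5. No detection calls were used here. The values were taken as deposited.

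Of 22277 probe sets, 19070 had 1 symbol in the platform annotation, 1043 several and 2164 none. Symbols were updated through RefSeq gene IDs (19058 matched). The brightest probe set stood for each of 11963 genes, of which 4368 reached a log2 value of 4 on 3 or more arrays and were tested. limma 3.58.1 in R 4.3.3 (lmFit, eBayes) fitted all 9 arrays together, so that the groups share 1 estimate of spread, and was tested on simulated data. All tests are two-sided.

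The members and lists were chosen with earlier results of these data known. Named genes are the members and, of each list, up to 4 non-members past the threshold with the largest absolute log2 fold change against untreated cells; other list genes were named after their values were seen. The 3 genes most like a member were named by correlation.

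Pairing by the titles' replicate numbers was checked on deviations from group means. Their correlation was 0.378 to 0.662 for arrays sharing a number. It was −0.526 to 0.185 for arrays of other numbers at other time points. Deviations within a group cancel out, so these ranges are not independent. Among arrays of the other time points, each of the 9 arrays was closest to one of its own number. Numbers were therefore read as runs, and the blocked value is given where it changes a call. Replicates are runs of 1 cell line. The p-values without the block include shifts between runs. Alternatives were the block, 2 other filters, every probe set, quantile normalization, median centring, a variance trend, 2-group fits and left-out arrays or runs. All but the first were fitted without the block.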

Additional observations from a re-analysis of the deposited data

How the results depend on the processing

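With the replicate block, 501 genes were called at 24 h and 438 at 48 h, against 210 and 194 without it, and 2 genes of the set at 24 h (THBS1 and CCN2) instead of 1. The block changed no other call among the 5 genes tested. With no filter on low values, THBS1 missed the threshold at 24 h (adjusted p = 0.0622) and 48 h (0.0572), which left 0 called of the set at both times. In the fit of only the 2 groups compared, 124 genes were called at 24 h and 0 of the set (THBS1 adjusted p = 0.107). The stricter filter, every probe set, quantile normalization, median centring and the variance trend left 1 gene of the set called at either time. Quantile normalization and median centring moved the median of all genes by less than 0.1 on the log2 scale. With arrays or runs left out, 34 to 213 genes were called at 24 h, 33 to 206 at 48 h and 0 between the times, and 0 to 1 of the set against untreated cells. Without a whole replicate number, THBS1 kept its direction and missed the threshold (adjusted p = 0.0862 to 0.212 at 24 h and 0.128 to 0.17 at 48 h).

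Small values that missed the threshold changed sign with arrays or runs left out. AXL at 24 h ranged from −0.14 to 0.24, AMOTL2 at 24 h from −0.14 to 0.14, CCN1 at 48 h from −0.12 to 0.064 and THBS1 at 48 h against 24 h from −0.31 to 0.38. Between 48 h and 24 h, F3 ranged from −0.60 to 0.0075, DLG5 from −0.042 to 0.13, TGFBI from −0.071 to 0.25 and SMAD7 from −0.041 to 0.20. The cause of these changes was not tested. The 3 arrays of a group limit the precision.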

Other observations

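Of the 22277 probe sets, 53.3% had exactly the same deposited value on at least 2 of the 9 arrays. The share was 62.1% among probe sets with a mean log2 value under 4, 37.5% from 4 to under 6 and 27.5% at 6 or more. None of the probe sets that stood for CCN1, CCN2, AXL, AMOTL2 and THBS1 had a repeated value. Those of ANKRD1, YAP1 and TEAD1 each had 1 value on 2 arrays, and the dimmer AXL probe set had 1 value on 3 arrays.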
